A study of Danio rerio with 16 samples.

Results

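Translation factors and aminoacyl-tRNA synthetases were examined in the fast muscle of adult zebrafish after swimming exercise. The genes were those whose array probe carried a RefSeq accession with a symbol of the eIF or eEF series or of the synthetases (names such as aars1, eprs1 or farsb). This gave 63 genes with 91 probes, of 5952 genes and 9104 probes that could be named in this way and of 122 genes in RefSeq with such a symbol. They comprised 37 genes of initiation (4E-binding proteins included), 11 of elongation (the eEF2 kinase included), 11 cytosolic synthetases and 4 mitochondrial synthetases. No gene of the eIF2 kinase series (eif2ak) was among the named probes.

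Initiation factors bring the small ribosomal subunit and the initiator tRNA to the capped end of an mRNA, and 4E-binding proteins hold back the cap-binding protein eIF4E until mTOR signalling phosphorylates them. Elongation factors then deliver charged tRNAs (eEF1A) and move the ribosome along the mRNA (eEF2), and eEF2 kinase slows that step by phosphorylating eEF2. Each aminoacyl-tRNA synthetase loads its own amino acid onto tRNA, and in skeletal muscle these steps set how fast new contractile protein can be made.

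The study compared 8 exercised fish, which swam at 0.4 m/s for 6 h per day over 20 days, with 8 non-exercised fish kept at 0.1 m/s for the same time. All were wild-type adults from a pet shop, with no transgene or drug, and each group lived in a tunnel of its own, so tunnel and group cannot be told apart. RNA of the dorsal epaxial fast muscle of each single fish was hybridised to 1 single-colour Agilent array, and the signal is given here as log2 over the 75th percentile of the array, so that 0 is the signal at that percentile and a difference of 1 is a doubling. Each gene is represented by its named probe of highest mean signal, and fold changes are log2 differences, exercised minus non-exercised, with the SE and adjusted p of limma over all 43803 probes.

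The arrays lay on 4 slides that held 1 group each (non-exercised fish 1 to 4 and 5 to 8, then exercised fish 1 to 4 and 5 to 8), and per the file headers the scan days differed between the groups, so neither scan day nor slide can be told apart from group. Between 21.1% and 54.0% of the probes of an exercised array and between 33.7% and 48.5% of those of a non-exercised array were well above background, the lowest share being on the slide of exercised fish 5 to 8. The labelled tissue was checked by 6 of 11 listed fast muscle genes that were measured. Their summed signal was 9.46 to 11.41 in exercised and 9.61 to 11.21 in non-exercised fish, and 1 of them, tnnt3a, fell. The tnnt3a probe was well above background in 0 exercised and 7 non-exercised fish. The others did not pass the test. Their log2 fold changes were 1.07 for ckma, 0.47 for mylpfa, 0.39 for myhz2, 0.09 for tnnt3b and -0.39 for mylpfb. Slow muscle markers (3 of 7 measured, 0 called) summed to 6.37 to 8.15 in exercised and 6.81 to 8.82 in non-exercised fish. That sum rested mainly on tnnc1b, with means of 7.47 in exercised and 7.63 in non-exercised fish. Skin markers (6 of 7 measured, 0 called) summed to 7.43 to 8.77 and 7.41 to 8.34, so the samples also carried signal of genes on both lists. Within the skin list icn was lower (-0.70 ± 0.33) and the others were higher, with krt4 at 0.80 ± 0.37 (limma, adjusted p = 0.25 and 0.246). Summed leukocyte markers (5 of 6 measured, 0 called) lay at 3.19 to 8.29 in exercised and 3.65 to 6.96 in non-exercised fish, the upper exercised end being lyz in exercised fish 6 (8.13, with the next exercised fish at 3.37). Left without lyz, a choice made after seeing the data, the sum was 2.35 to 5.38 (median 3.97) in exercised and 2.91 to 6.90 (median 5.43) in non-exercised fish. Within that list, coro1a, lcp1 and mpeg1.1 had log2 fold changes of -1.28 ± 0.57, -1.22 ± 0.58 and -1.01 ± 0.67 (limma, adjusted p = 0.22, 0.256 and 0.465). Each was below its non-exercised mean in 7 of 8 exercised fish, in the direction of the initiation and synthetase genes below. The remaining measured markers, lyz and mpx, gave 0.02 ± 0.79 and -0.07 ± 0.64 (limma, adjusted p = 0.99 and 0.953). The mpx probe stood well above background in 0 exercised and 1 non-exercised fish. Red cell markers (4 of 6 measured, 0 called) summed to 7.78 to 9.54 in exercised and 6.16 to 8.48 in non-exercised fish. All 4 were higher in exercised fish. For hbaa1 and hbba1 the log2 fold changes were 1.56 ± 0.47 and 1.32 ± 0.39 (limma, adjusted p = 0.0537 and 0.0551). For hbba2 and slc4a1a they were 0.97 ± 0.40 and 0.57 ± 0.58 (limma, adjusted p = 0.172 and 0.642). The endothelial gene cdh5 was at background on every array. The part of these cells in the results below was not tested, and in bulk tissue fewer cells of a type and less RNA per cell cannot be told apart.

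Of the 63 genes, 2 rose and 7 fell in exercised zebrafish at an adjusted p under 0.05. The genes that rose were both of elongation, eef1a2 and eef2k. Those that fell were 3 initiation genes (eif3jb, eif4bb and eif2d) and 4 cytosolic synthetases (nars1, wars1, sars1 and rars1). Among all named genes, 3.21% rose and 3.01% fell, against 3.17% and 11.1% of the translation genes. Over all 43803 probes the shares were 4.58% higher and 1.79% lower. At an unadjusted p under 0.05, 26 of the 63 translation genes were lower and 2 higher, beside 12.5% of all named genes lower and 10.5% higher. The median log2 fold change of the 63 genes was -0.55, and 50 of them were lower, beside a median of 0.07 and 45.5% lower over all named genes. The 63 include eef1a1a and eef2a.1, which no array had well above background, and cars2, with 0 exercised and 2 non-exercised arrays well above it.

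Of the translation genes, 42 were well above background on all 16 arrays, 17 on 8 to 15 and 4 on fewer than 8 arrays. Within the 42, 1 rose (eef2k) and 3 fell (rars1, sars1 and wars1), which is 2.38% and 7.14%. The named genes with the same brightness had 3.14% higher and 4.26% lower, with a median log2 fold change of -0.06. Of the 42, 34 had a lower mean signal in exercised fish, beside 53.7% of those named genes. Signals of the groups did not overlap for 1 gene that was higher (eef1a2) and 1 that was lower (wars1), whereas 0.773% of all named genes were without overlap higher and 0.42% lower. Where a gene had more than 1 probe well above background on some array (24 genes), the fitted changes had the same sign at all such probes in all 24.

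**Figure D1:**
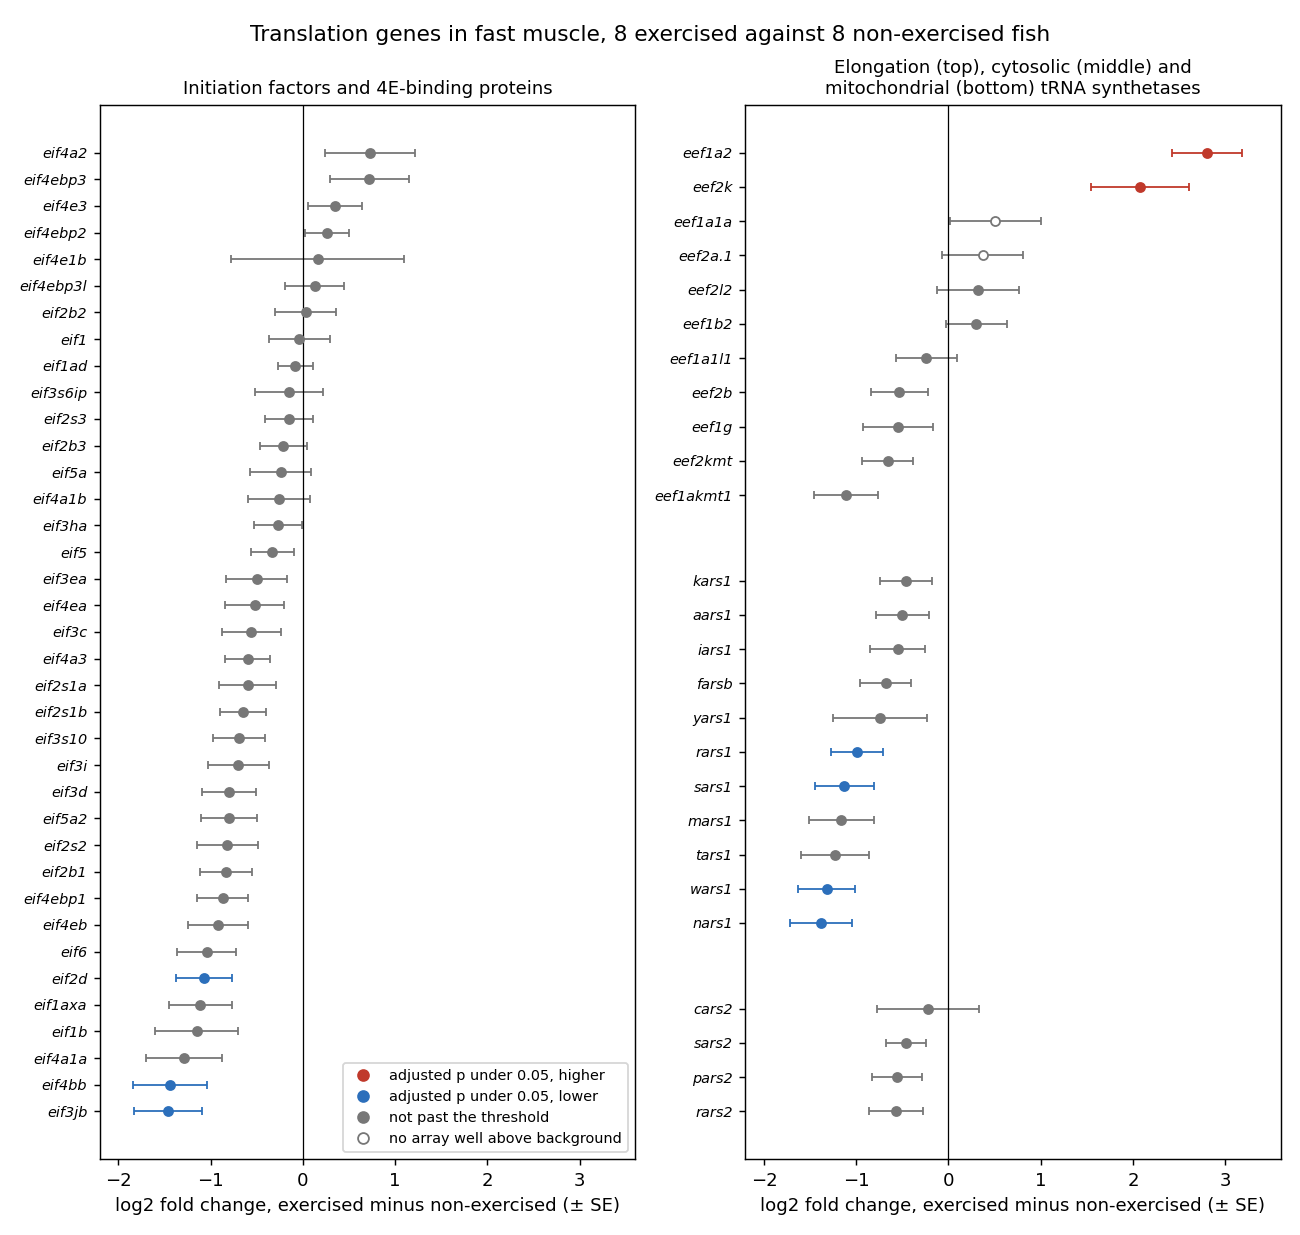
The log2 fold change (exercised minus non-exercised, horizontal axis) of each of the 63 genes, with bars of 1 SE, is drawn by class. The 11 cytosolic synthetases all lie left of 0, 30 of the 37 initiation genes do so, and eef1a2 (2.80) and eef2k (2.08) stand to the right; open circles mark eef1a1a and eef2a.1, which no array had well above background.

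Elongation was the class with the genes that rose, although its median over the 11 genes, 0.23 relative to all named genes, had no settled sign across settings. That median counts eef1a1a and eef2a.1 on its positive side, though no array had their probes well above background. With probes above background on 8 arrays or more, which leaves both out, it was -0.09 relative to the named genes so filtered. With probes above background on all 16 arrays it was 0.09. Of the genes that rose, the larger change was in eef1a2, which encodes the eEF1A form that in mammals replaces eEF1A1 in adult muscle. Its signal (probe A_15_P115763) ran from 0.38 to 2.20 in exercised fish, with a median of 1.53, and from -2.79 to -0.04 in non-exercised fish, with a median of -1.48. Each of the 8 exercised fish was above each of the 8 non-exercised fish. The log2 fold change was 2.80 ± 0.38 (SE, n = 8 and 8), a 6.95-fold difference, with an adjusted p = 0.000288 by limma. It was 2.53 on the slide of exercised fish 1 to 4 and 3.06 on that of fish 5 to 8. The size depended on the background treatment, at 2.06 without correction and 2.05 after normexp. Of the arrays, 8 exercised and 6 non-exercised ones had this probe well above background. A second eef1a2 probe (A_15_P103966) was not well above background in either group, so it gives no fold change.

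The kinase that inhibits eEF2, eef2k (probe A_15_P111156), had signals of 3.74 to 5.55 in the 7 exercised fish measured, with a median of 4.51. The 8 non-exercised fish spread from 0.47 to 4.12, with a median of 2.33. Of those 7 exercised fish, 5 were above every non-exercised fish, and non-exercised fish 1 (3.90) and 8 (4.12) reached into the exercised range. The change on the log2 scale was 2.08 ± 0.53 (SE), 4.22-fold, with an adjusted p = 0.0255 by limma. Exercised fish 1 had no value because its spot carried an outlier flag. The other eef2k probes had log2 fold changes of 1.30 ± 0.40 (adjusted p = 0.0562) and 1.2 ± 0.39 (adjusted p = 0.0746), in the same direction but short of the threshold.

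The other elongation factor genes did not pass the test. The signal of eef1a1l1, a further zebrafish eEF1A gene, was 7.61 to 8.35 in the 4 exercised fish measured and 7.72 to 8.57 in the 6 non-exercised fish measured. Its log2 fold change was -0.24 ± 0.33 (adjusted p = 0.699), and all its spots on the slide of exercised fish 1 to 4 were left out for outlier flags. With flagged spots kept, a setting chosen after seeing the data, the value was -0.45 ± 0.27 (adjusted p = 0.405). The translocase gene eef2b had signals of 5.46 to 7.38 (median 6.87) in exercised fish and 6.78 to 7.94 (median 7.25) in non-exercised fish. Its log2 fold change was -0.53 ± 0.31 (adjusted p = 0.393), and the other eef2b probes each gave -0.33. The eEF2-like gene eef2l2 gave 0.32 ± 0.44 (adjusted p = 0.70).

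The exchange factor of eEF1A, eEF1B, was measured through subunit genes that lay on either side of 0. For eef1b2 the log2 fold change was 0.30 ± 0.33 (adjusted p = 0.658) and that of eef1g, the gamma subunit, was -0.55 ± 0.38 (adjusted p = 0.503). Outlier flags removed 4 spots of eef1b2 and 5 of this eef1g probe. Of exercised fish 1 to 4, only fish 4 had a value for eef1b2. The second eef1g probe, with 0 spots left out, gave -0.28 ± 0.39 (limma, adjusted p = 0.701). The sign of eef1b2 depended on the scaling, since it was -0.02 after a median shift, -0.28 after quantile normalization and -0.07 after cyclic loess. Beside them, the methyltransferase genes eef1akmt1 and eef2kmt, whose human products methylate eEF1A and eEF2, had log2 fold changes of -1.11 ± 0.35 (adjusted p = 0.0689) and -0.66 ± 0.28 (adjusted p = 0.19). Signals of eef1akmt1 were lower than the non-exercised mean in 8 of 8 exercised fish. For eef1a1a and eef2a.1, no array had the probe well above background.

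**Figure D2:**
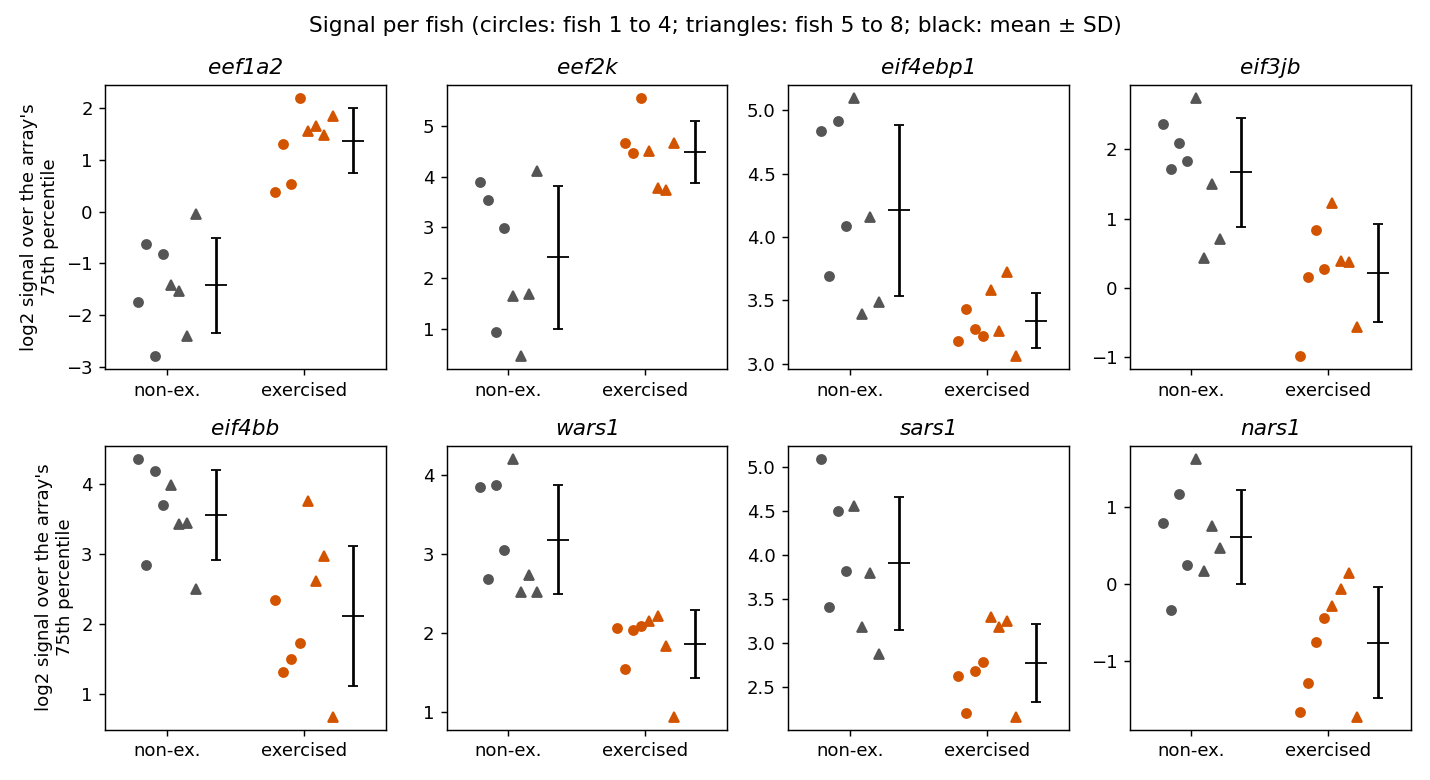
Each point is the log2 signal over the 75th percentile of the array (vertical axis) in 1 fish, with circles for fish 1 to 4 and triangles for fish 5 to 8 of each group, on separate slides, and the black bar is the mean ± SD. The groups do not overlap for eef1a2 and wars1, and for the other 6 genes they overlap in part.

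All 11 cytosolic aminoacyl-tRNA synthetase genes had a lower mean signal in exercised fish, and 4 of them passed the test. Their log2 fold changes ran from -1.38 to -0.46 with a median of -0.99, or -1.06 relative to the median of all named genes. Relative to the named genes well above background on all 16 arrays it was -0.93. All 11 were lower on the slide of exercised fish 1 to 4 (median -1.13) and all 11 on that of fish 5 to 8 (median -0.63). The median of all named genes was -0.23 on the first of these slides and 0.16 on the second. At an unadjusted p under 0.05, 7 of the 11 were lower, beside the 12.5% of all named genes.

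The tryptophanyl-tRNA synthetase gene wars1 (probe A_15_P115909) had signals of 0.94 to 2.22 in exercised fish (median 2.05) and of 2.52 to 4.21 in non-exercised fish (median 2.90). All 8 exercised fish were below all 8 non-exercised fish. It fell by 1.32 ± 0.31 (SE) on the log2 scale, a 2.50-fold difference (limma, adjusted p = 0.0138). By exercised slide, it was -1.25 for fish 1 to 4 and -1.40 for fish 5 to 8.

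The asparaginyl-tRNA synthetase gene nars1 (probe A_15_P104369) ranged from -1.73 to 0.14 (median -0.60) in exercised and from -0.34 to 1.63 (median 0.61) in non-exercised fish. Here 5 exercised fish lay below every non-exercised fish and 8 of 8 were below the non-exercised mean. The difference on the log2 scale was -1.38 ± 0.34 (adjusted p = 0.0202 by limma), the lowest of the 15 synthetase genes. Of the arrays, 6 exercised and 8 non-exercised ones had this probe well above background.

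For sars1, which charges serine tRNA (probe A_15_P114078), exercised signals were 2.16 to 3.29 (median 2.73) and non-exercised signals 2.87 to 5.09 (median 3.80). The log2 fold change was -1.13 ± 0.32 (adjusted p = 0.0427), and a second probe gave -1.38 ± 0.35 (adjusted p = 0.0222), both by limma. The arginine gene rars1 (probe A_15_P112874) had signals of 0.69 to 2.06 (median 1.64) against 1.74 to 3.22 (median 2.57). Its log2 fold change was -0.99 ± 0.28 (adjusted p = 0.0428) and that of its second probe was -1.06 ± 0.27 (adjusted p = 0.0223). For both genes, 5 exercised fish were below all non-exercised fish and 8 of 8 below the non-exercised mean.

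The threonine gene tars1 fell at one of its probes. The probe that stands for the gene, with signals of 0.10 to 2.77 (median 1.14) in exercised and 1.57 to 3.17 (median 2.67) in non-exercised fish, had a log2 fold change of -1.23 ± 0.37 (adjusted p = 0.0553). Its second probe, well above background in 5 exercised and 8 non-exercised fish, gave -1.5 ± 0.36 (adjusted p = 0.0164). The methionine gene mars1 had -1.16 ± 0.35 (adjusted p = 0.0562).

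The remaining cytosolic synthetases had smaller differences that did not pass the test. The genes for alanine (aars1), isoleucine (iars1) and lysine (kars1) had log2 fold changes of -0.50 ± 0.29 (adjusted p = 0.381), -0.55 ± 0.30 (0.339) and -0.46 ± 0.28 (0.402). Those of the phenylalanine beta subunit farsb and the tyrosine gene yars1 were -0.68 ± 0.28 (adjusted p = 0.179) and -0.74 ± 0.51 (adjusted p = 0.483). In kars1 the exercised fish spanned 4.56 to 5.48 and the non-exercised fish 4.80 to 6.56, so most of the exercised range lay inside that of the non-exercised fish.

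The mitochondrial synthetases, which charge tRNAs for the proteins that the mitochondrial genome encodes, were well above background on all 16 arrays in 0 of 4 cases, and 0 passed the test. The genes rars2, pars2 and sars2 had log2 fold changes of -0.57 ± 0.29 (adjusted p = 0.29), -0.56 ± 0.27 (0.274) and -0.46 ± 0.22 (0.264). For sars2 the exercised signals were -0.46 to 0.26 and the non-exercised signals 0.13 to 1.03, and 8 of 8 exercised fish were below the non-exercised mean. The probe of cars2 stood well above background in 0 exercised and 2 non-exercised fish and gives no fold change.

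Of the 37 initiation genes, 30 had a lower mean signal in exercised fish, 3 fell at the adjusted threshold and 0 rose. At an unadjusted p under 0.05, 17 of the 37 were lower and 0 higher, beside 12.5% and 10.5% of all named genes. The median log2 fold change was -0.56 (-0.63 relative to all named genes), with a range of -1.46 to 0.73. Relative to the named genes well above background on all 16 arrays it was -0.50. The median was -0.50 on the slide of exercised fish 1 to 4 and -0.58 on that of fish 5 to 8. Relative to all named genes on the same slide it was -0.27 and -0.74. The relative value also moved with the background treatment, to -0.35 without correction and -0.38 after normexp.

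The eIF3 complex, the scaffold on which the small subunit and the mRNA meet, was measured by 8 genes, and all 8 were lower with a median of -0.62. Only eif3jb, for the loosely bound j subunit, passed the test among them. Its signals (probe A_15_P100193) were -0.98 to 1.22 (median 0.33) in exercised and 0.43 to 2.74 (median 1.77) in non-exercised fish, and 6 exercised fish were below all non-exercised fish. The change on the log2 scale was -1.46 ± 0.37 (adjusted p = 0.0232 by limma), the lowest of all 63 genes. For the subunit genes eif3d, eif3i and eif3s10 (the former name of the a subunit) the values were -0.80 ± 0.29, -0.70 ± 0.33 and -0.69 ± 0.28 (limma, adjusted p = 0.108, 0.239 and 0.16). For eif3c, eif3ea and eif3ha they were -0.56, -0.50 and -0.27. For the l subunit gene eif3s6ip the value was -0.15 ± 0.37 (adjusted p = 0.826).

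The cap-binding and unwinding machinery held the second initiation gene that fell. The gene eif4bb encodes an eIF4B, the RNA-binding cofactor of the helicase eIF4A. Its signals (probe A_15_P117871) were 0.68 to 3.76 (median 2.03) in exercised and 2.50 to 4.36 (median 3.57) in non-exercised fish, and exercised fish 5 (3.76) lay above the non-exercised median. The difference on the log2 scale was -1.44 ± 0.40 (adjusted p = 0.0387). It was -1.84 for exercised fish 1 to 4 and -1.05 for fish 5 to 8.

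The helicase genes themselves differed among each other. For eif4a1a the log2 fold change was -1.29 ± 0.41 (adjusted p = 0.0698) and that of its second probe -0.64 ± 0.37 (adjusted p = 0.378). The paralog eif4a1b gave -0.26 ± 0.34 (adjusted p = 0.694), eif4a3, the exon junction complex form, gave -0.60 ± 0.24 (adjusted p = 0.148) and eif4a2 gave 0.73 ± 0.49 (adjusted p = 0.473). The non-exercised fish covered 1.04 to 4.47 for eif4a2, a range that contained all 7 measured exercised fish.

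The eIF4E genes, which bind the cap, did not pass the test. For eif4eb the log2 fold change was -0.92 ± 0.32 (adjusted p = 0.0963), with signals of 1.24 to 2.54 (median 1.40) in exercised and 1.41 to 3.24 (median 2.91) in non-exercised fish. Values of eif4ea and eif4e3 were -0.52 ± 0.32 (adjusted p = 0.409) and 0.35 ± 0.29 (adjusted p = 0.574). The eIF4E relative eif4e1b stood well above background in 1 exercised and 2 non-exercised fish and had a log2 fold change of 0.16 ± 0.94 (adjusted p = 0.929), whose sign turned under other scalings.

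The 4E-binding protein genes lay on either side of 0. For eif4ebp1, the repressor released from eIF4E by mTOR signalling, exercised fish lay in a narrow band of 3.06 to 3.72 (median 3.27) and non-exercised fish between 3.39 and 5.10 (median 4.12). All 8 exercised fish were below the non-exercised mean, and 5 were below every non-exercised fish. The log2 fold change at this brightest probe was -0.87 ± 0.28 with an adjusted p = 0.0727, just outside the threshold. The other probes gave -1.01 ± 0.28 (adjusted p = 0.0395), which passed, and -0.72 ± 0.26 (adjusted p = 0.107).

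The relatives of eif4ebp1 did not pass the test. Log2 fold changes were 0.26 ± 0.24 for eif4ebp2 (adjusted p = 0.618) and 0.13 ± 0.32 for eif4ebp3l (adjusted p = 0.817), the sign of the latter turning after a median shift (-0.12) and with array weights (-0.09). The gene eif4ebp3 gave 0.72 ± 0.43 (adjusted p = 0.39), but the exercised slides were unlike each other. Exercised fish 1 to 4 had signals of 1.5, 1.37, 1.92 and 1.2, all above the highest non-exercised fish (0.81), whereas fish 5 to 8 had -0.63, -0.41, -0.28 and -0.41, all within the non-exercised range of -0.97 to 0.81. The difference was 1.68 on the first of these slides and -0.24 on the second.

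The third initiation gene that fell was eif2d, whose product can place tRNA on the small subunit without eIF2. Its signals (probe A_15_P118730) were -0.41 to 1.03 (median 0.44) in exercised and 0.85 to 2.76 (median 1.27) in non-exercised fish. Only exercised fish 5 (1.03) was not below all non-exercised fish. The log2 fold change was -1.07 ± 0.30 (adjusted p = 0.0365). The genes of eIF2 itself, the carrier of the initiator tRNA, had log2 fold changes of -0.82 ± 0.33 for eif2s2 (adjusted p = 0.156), -0.65 ± 0.25 for eif2s1b (0.138), -0.60 ± 0.31 for eif2s1a (0.295) and -0.15 ± 0.26 for eif2s3 (0.747).

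The exchange factor eIF2B, which recharges eIF2 with GTP, was measured by 3 genes, with log2 fold changes of -0.83 ± 0.28 for eif2b1 (adjusted p = 0.08), -0.21 ± 0.25 for eif2b3 (0.666) and 0.03 ± 0.33 for eif2b2 (0.963). Among the scanning factors, eif1axa gave -1.11 ± 0.34 (adjusted p = 0.0614), with exercised signals of 1.53 to 2.63 and non-exercised signals of 1.87 to 4.29. The related eif1b gave -1.15 ± 0.45 (adjusted p = 0.151), whereas eif1 gave -0.04 ± 0.33 (0.948). The gene eif1ad, placed in initiation by its symbol alone, gave -0.08 ± 0.19 (adjusted p = 0.805).

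For the factors that act at subunit joining and after it, eif6, which keeps the large subunit from joining too early, gave -1.04 ± 0.32 (adjusted p = 0.0614). Exercised signals were 2.52 to 3.46 in 7 fish and non-exercised signals 3.17 to 5.08. The GTPase activator eif5 gave -0.33 ± 0.23 (adjusted p = 0.498). The hypusine-bearing factor genes eif5a2 and eif5a gave -0.80 ± 0.30 (adjusted p = 0.124) and -0.24 ± 0.33 (adjusted p = 0.696).

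**Figure D3:**
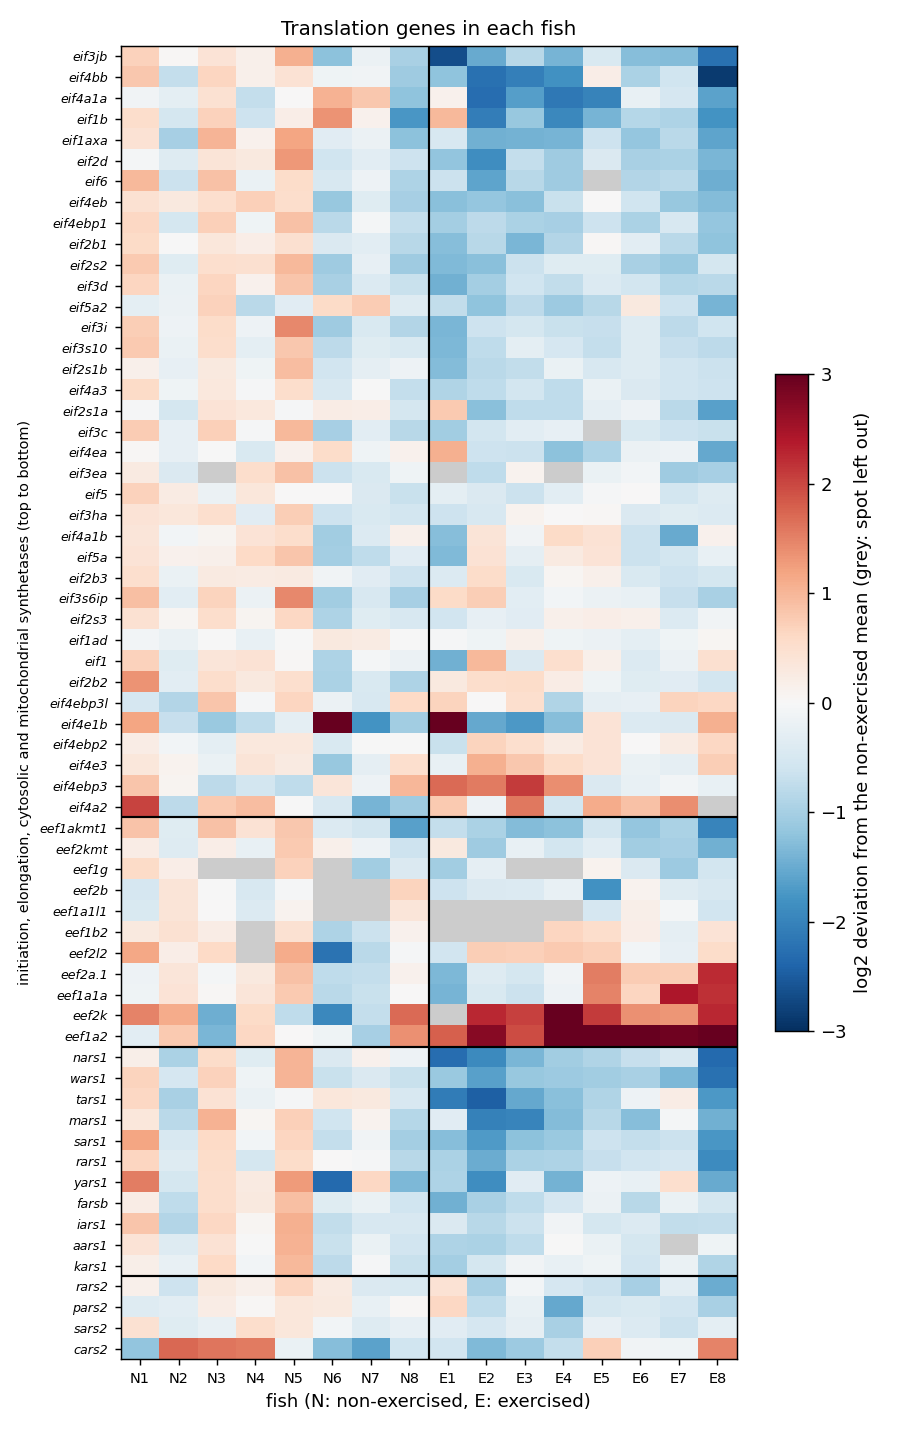
Colours show the log2 deviation of each of the 63 genes (rows, by class) from its non-exercised mean in each of the 16 fish (columns); grey marks a spot left out. Exercised fish are mostly blue in the initiation and cytosolic synthetase blocks, eef1a2 and eef2k are red, and non-exercised fish 1, 3 and 5 are redder than non-exercised fish 2, 6 and 8.

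The classes were then followed from fish to fish, as the median over the genes of a class of each gene's deviation from its non-exercised mean. For the initiation genes this median was -0.75 to -0.19 (median fish -0.60) in exercised fish and -0.66 to 0.52 (median fish -0.05) in non-exercised fish. It was below 0 in 8 of 8 exercised and in 4 of 8 non-exercised fish, so the groups overlapped. Non-exercised fish 1, 3 and 5 had the high values, 0.52, 0.47 and 0.52, and fish 6 and 8 the low ones, -0.58 and -0.66, within the exercised range.

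The cytosolic synthetases were at -1.63 to -0.34 in exercised and -0.66 to 0.98 in non-exercised fish. Again 8 of 8 exercised fish were below 0, and in 7 of them all 11 genes were below their non-exercised mean. In exercised fish 7, 8 of the 10 measured genes were. Non-exercised fish 6 and 8 (both -0.66) lay below exercised fish 5 (-0.60), 6 (-0.58) and 7 (-0.34). The elongation genes overlapped more widely, at -0.67 to 0.54 in exercised and -0.79 to 0.69 in non-exercised fish. Over all 5952 named genes the same measure was -0.34 to 0.30 in exercised and -0.36 to 0.24 in non-exercised fish.

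**Figure D4:**
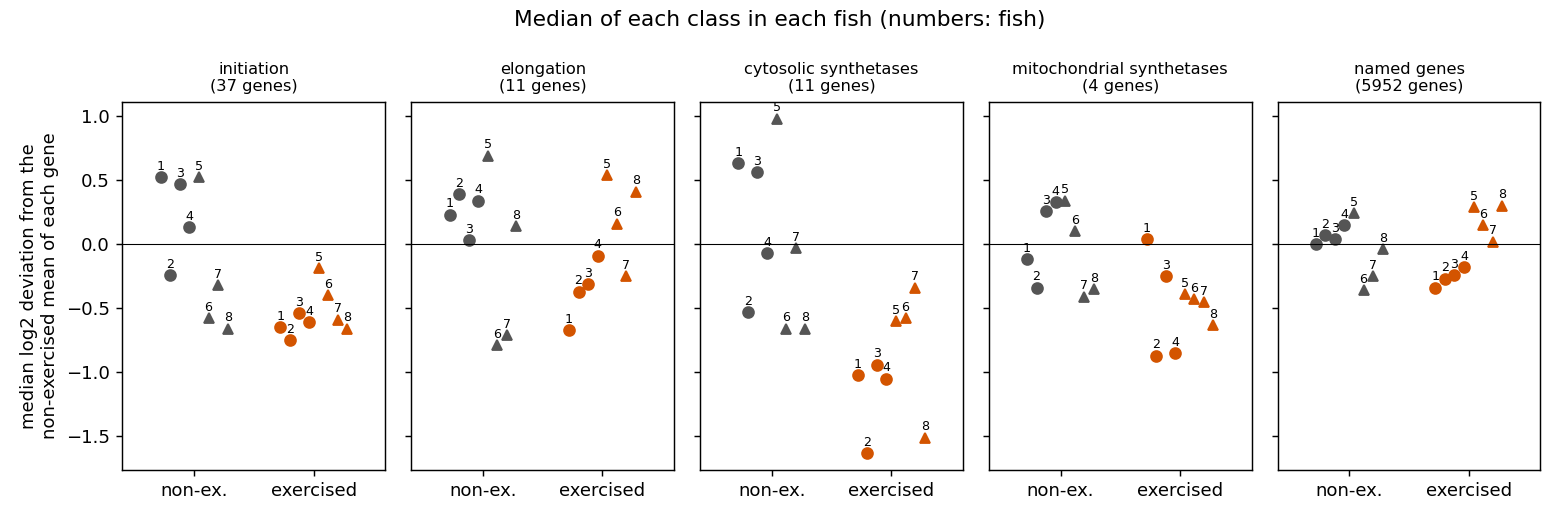
Each point is 1 fish, numbered within its group, and the vertical axis is the median log2 deviation from the non-exercised mean over the genes of a class (circles for fish 1 to 4, triangles for fish 5 to 8). For the 37 initiation genes and the 11 cytosolic synthetases all 8 exercised fish are below 0 and non-exercised fish 1, 3 and 5 are the highest, while the 5952 named genes lie between -0.36 and 0.30 in every fish.

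Other genes of protein synthesis and its control were taken from 5 lists, of which 21 of 59 genes could be measured. Of the 21, 11 were well above background on all 16 arrays. Over all 21, whether bright or dim, 9 were higher and 12 lower, 1 rose and 0 fell at the adjusted threshold, and the median log2 fold change was -0.04. Among all named genes 3.21% rose and 3.01% fell, and 45.5% were lower, so 1 call in 21 genes is near the share over all named genes. The gene that rose was trib3, a pseudokinase target of the transcription factor ATF4 in mammals, with a log2 fold change of 0.96 ± 0.25 (adjusted p = 0.0255 by limma). The asparagine synthetase gene asns, also an ATF4 target in mammals, gave -1.57 ± 0.46 (adjusted p = 0.0526) and atf4a itself 0.31 ± 0.24 (adjusted p = 0.551). Of the mTOR and S6 kinase list, 9 of 25 genes were measured, 0 passed the test and the median was -0.01. That median is the value of akt2, whose probe stood well above background in 0 exercised and 0 non-exercised fish. Only mknk2b and tsc1a, 2 of the 9, had such a signal in every fish. The median therefore cannot tell whether the list as a whole changed. The highest value of the list was that of mknk2b, for a kinase of eIF4E, at 0.84 ± 0.29 (limma, adjusted p = 0.0888). Of termination and mRNA circularisation genes 5 of 11 were measured, 0 passed the test and the median was -0.23.

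The calls depended on how the slides were treated. With the slide as a random block (correlation 0.30 between arrays of a slide), 0 of the 9 calls remained, with adjusted p = 0.0631 for eef1a2, 0.462 for eef2k and 0.419 for wars1, and with log2 fold changes of 2.80, 2.11 and -1.32. After normexp background correction eef1a2, wars1, eif3jb and eif4bb passed, and eef2k, eif2d, nars1, rars1 and sars1 did not. With exercised fish 1 to 4 only, eef1a2, nars1 and eif4bb kept their calls, and tars1 and eif4ebp3 were added. With exercised fish 5 to 8 only, eef1a2, eef2k, nars1, wars1 and eif3jb kept theirs, and eef2kmt, rars2, eef1a1a and eef2a.1 were added.

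When each fish was left out in turn, eef1a2 and wars1 passed in 16 of 16 fits. The calls of eif3jb and nars1 were lost in 1 fit, without non-exercised fish 3 (adjusted p = 0.0547 and 0.0508). That of eef2k needed non-exercised fish 3 and 7 and exercised fish 2 and 4, without any of which its adjusted p was at most 0.0593. The call of eif2d was lost in 8 fits (leaving out fish 1, 3, 4, 5 or 7 of the non-exercised group or fish 2, 4 or 8 of the exercised group), with an adjusted p of up to 0.0825. Those of sars1, eif4bb and rars1 were lost in 9, 10 and 10 fits, with an adjusted p of up to 0.0975, 0.0877 and 0.0983, and were kept by all 3 genes in the fits that left out fish 2 or 8 of the non-exercised group or fish 1, 6 or 7 of the exercised group. The number of translation genes that fell was lowest, 1, when non-exercised fish 3 was left out and highest, 15, when non-exercised fish 8 was. The 11 cytosolic synthetases, or the 8 of them kept by the strictest filter on background, were lower in all 32 alternatives and fits without 1 fish. These 32 are not separate checks of the sign. Filters on background and changes of test leave the group means as they were, and the slide block nearly so. The fits without 1 fish share most of their fish. Other scalings, other background treatments and either exercised slide alone do change the values, and there too all 11 were lower.

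**Figure D5:**
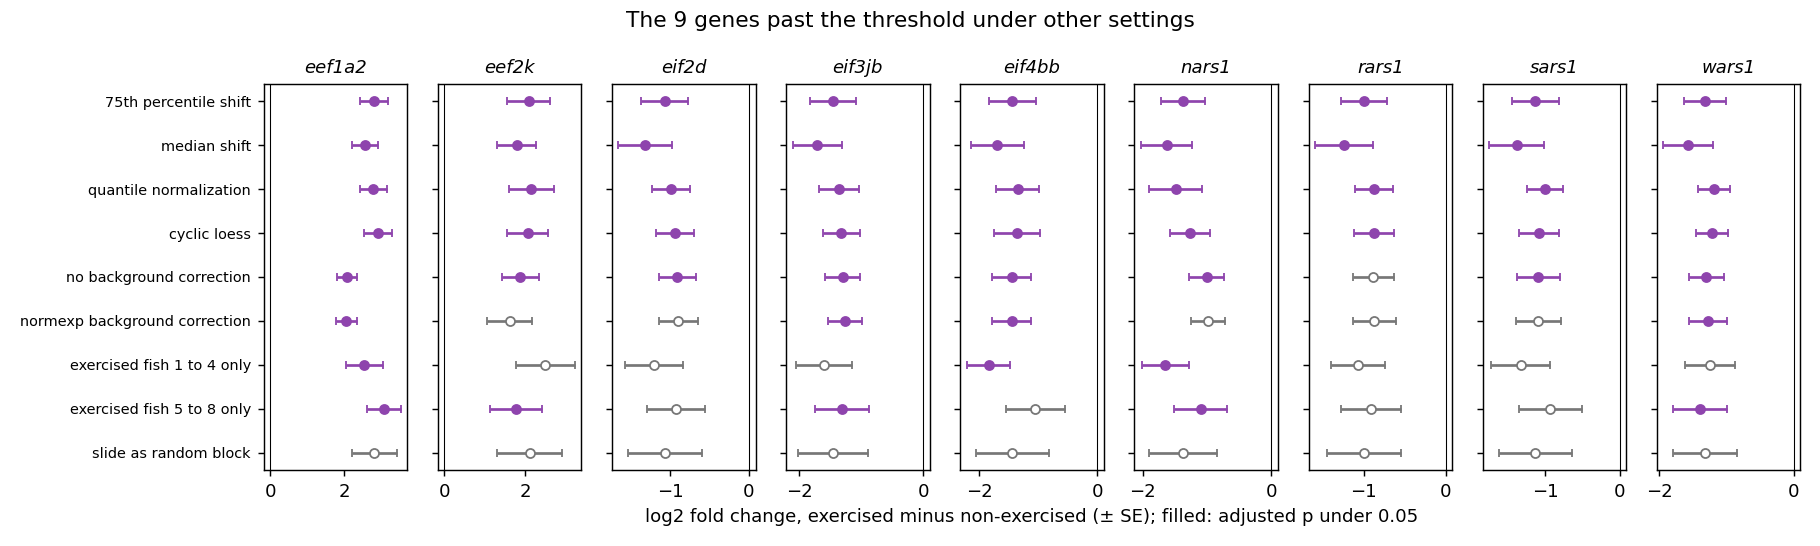
The log2 fold change (horizontal axis, exercised minus non-exercised) with bars of 1 SE is drawn for each of the 9 genes under 9 settings (rows), with filled circles where the adjusted p was under 0.05. Every value keeps the sign it has with the 75th percentile shift in the top row, and no circle is filled in the bottom row, where the slide is a random block. That block leaves the group means nearly unchanged, so the signs in its row are no separate check.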

How the data were processed

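Total RNA of single fish was labelled with Cy3, and the authors quantified each array with Agilent Feature Extraction (10.7.3.1 per the labels). The deposited scanner files hold intensity values per spot, of which the processed signal, after the authors' background subtraction, was used. The median spot and median background intensities were used for the alternatives. A further deposited table holds the authors' values, fold changes and p-values of the probes they listed, and it was not used.

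Signals were log2 transformed and shifted by the 75th percentile of each array, taken over its 43803 non-control probes. Outlier-flagged spots, 49 to 892 on an array, were dropped, and 0 were saturated. Groups (8 and 8 arrays, 1 fish each) came from the labels. The groups were compared by limma 3.58.1 (lmFit, eBayes) in R 4.3.3, and p-values were adjusted by Benjamini-Hochberg across every non-control probe, with a threshold of 0.05. The numbers of fish and of probes above background limit the precision, more so for dim probes. RefSeq accessions of 11316 probes named 9104. Their annotation is of another assembly than the files, so it served for names alone.

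Genes named in the text were those past the threshold, the kinase and 4E-binding protein genes, the 3 highest and 3 lowest of each class among those well above background on all 16 arrays, genes whose probes differed in their call, and the eIF4E, eEF1A and eEF2 genes. The other members named beside them complete each complex and were chosen after their values were seen. Members, lists and tests were chosen with earlier results of these data known.

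Alternatives were a median shift, quantile normalization, cyclic loess, no background correction, normexp (offset 50), filters on background, the methods' t-test, array weights, slide and replicate blocks, either exercised slide alone, the mean over probes and each fish left out. Keeping spots with outlier flags was added after seeing the data. The limma step was tested on simulated data with independent noise on each array and no slide effect, so that test does not cover the confounding of slide and group. Sequences were not analysed here. Plots were drawn in Python 3.11.15 (matplotlib 3.10.9, pandas 2.3.3, numpy 2.4.6), and statmod 1.5.0 was also used.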

Additional observations from a re-analysis of the deposited data

Results flagged for a closer look

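Single fish stood far from the rest of their group in 4 of the 68 sets that could be examined, where chance marks about 1 in 20. A set was 1 gene or class median in 1 group, with 8 fish or fewer where flagged spots were left out. The signal of eef2b in exercised fish 5 was 5.46, with the next lowest exercised fish at 6.67. The eIF4E relative eif4e1b was at 1.97 in exercised fish 1, with the next highest exercised fish at -2.15, and at 1.27 in non-exercised fish 6, with the next highest non-exercised fish at -2.04. These fish had signals well above background on a probe that was below it in most others. The signal of eif4e3 in non-exercised fish 6 was 2.34, with the next lowest of its group at 3.21.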

How the results depend on the processing

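Translation genes that fell, 7 in all, numbered 16 after a median shift, 11 after quantile normalization, 16 after cyclic loess, 3 after normexp, 17 where probes had to be above background on 8 arrays or more and 14 where on all 16, 19 by the methods' t-test without adjustment, 21 with array weights, 12 with the replicate number as a block, 3 with exercised fish 1 to 4 only and 0 with the slide block. Those that rose, 2 in all, numbered 1 after normexp, with probes above background on all 16 arrays and with the mean over probes, 4 with exercised fish 5 to 8 only and 0 with the slide block. Those 4 included eef1a1a and eef2a.1, which no array had well above background. The median signal of the negative control spots was -2.87 on the slide of exercised fish 5 to 8. It was -4.53 on that of exercised fish 1 to 4, and -3.9 and -4.3 on the non-exercised slides. The replicate block changed no other count by over 1.5 times. Correlations of fish that share a number ran from 0.0286 to 0.415, and 3 exercised and 2 non-exercised fish correlated best with their own number.

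Of all probes, the 785 lower became 1426 (median shift), 1233 (quantile), 1546 (loess), 284 (normexp), 1550 (at least 8 arrays), 1820 (t-test), 2580 (weights) and 0 (slide block). The 2005 higher became 710 (no background correction), 489 (normexp), 1091 (at least 8 arrays), 675 (all 16), 3132 (weights), 82 (slide block), 1315 (exercised fish 1 to 4) and 14528 (exercised fish 5 to 8). The median log2 fold change of all probes was 0.26, and 0.01 after a median shift. Of the other pathway genes, the 1 higher became 0 after a median shift or normexp, with the slide block or with exercised fish 1 to 4, and 2 after loess, with either background filter, the t-test or weights. The 0 lower became 1 after a median shift, with the filter of at least 8 arrays, the t-test, weights or exercised fish 1 to 4.

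The median of elongation relative to named genes, 0.23, was -0.29 without background correction, -0.22 after normexp, -0.15 after quantile normalization, -0.04 after loess, -0.09 with the filter of at least 8 arrays, -0.17 with exercised fish 1 to 4 and -0.10 without non-exercised fish 6. That of the mitochondrial synthetases, -0.58, was -0.26 without background correction, -0.28 after normexp and -0.27 with exercised fish 1 to 4. That of initiation, -0.63, was -0.35, -0.38 and -0.27 under the same 3 settings. Signs turned for eef1b2 (-0.02 median shift, -0.28 quantile, -0.07 loess), eif4e1b (-0.09 median shift, -0.10 quantile, -0.21 loess, -0.17 no background correction, -0.12 normexp, -0.40 weights), eif4ebp3l (-0.12 median shift, -0.09 weights) and eif4ebp3 (-0.24, exercised fish 5 to 8). With 1 fish left out, 1 to 2 translation genes rose and 1 to 15 fell, 1354 to 2883 probes were higher and 287 to 1196 lower, and 0 to 2 pathway genes were higher and 0 to 1 lower. Values then ran from -0.56 to 0.80 for eif4e1b and from -0.05 to 0.51 for eef2l2. The cause of these changes was not tested. Few probes well above background on the slide of exercised fish 5 to 8 limit what can be read for dim genes.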
